A study of Mus musculus with 4 samples.

Results

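The genes of the mouse major histocompatibility complex (MHC), whose symbols begin with H2, were examined in dorsal root ganglia together with the partner genes B2m, Cd74, Tap1, Tap2 and Tapbp. Members were all probe sets whose platform symbol field held one of these symbols, which gave 71 of the 45101 probe sets on the array and 39 of the 19324 symbols in its annotation. They comprised 14 classical class I, 21 nonclassical class I, 22 class II and 10 partner probe sets, 2 other H2-named ones (H2-Ke6 and H2-D4), and 2 whose symbols lie in more than 1 class. Of the 71, 15 carried several symbols and 27 had the suffix _x_at or _s_at, which marks probes that can match more than 1 transcript. Total RNA came from fresh dorsal root ganglia, which house the sensory neurons of the body next to the spinal cord, and was hybridised to 4 Affymetrix mouse arrays. By their labels 2 arrays (1 and 2) belong to sample-1 and 2 (again 1 and 2) to sample-2, each sample being RNA of a single ganglion level, and neither the levels nor strain, age, sex, genotype or any agent are named. The letters le stand before the number 1 or 2 in each title without explanation; the descriptions assign the levels by sample, so the number was read as an array number, which is not certain. Whether the paired arrays of a level stem from different animals is not stated, so the p-values reflect array-to-array spread that may be purely technical.

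Class I molecules pair a heavy chain with beta-2 microglobulin, the product of B2m, and carry peptides from inside the cell to the surface, where cytotoxic T cells read them. The peptides reach the endoplasmic reticulum through the transporter made of Tap1 and Tap2, and tapasin, from Tapbp, holds the transporter and the empty heavy chain together. Class II molecules consist of an alpha and a beta chain and present peptides taken up from outside, mainly on macrophages, dendritic cells and B cells. Their peptide groove is first blocked by the invariant chain, from Cd74, whose remnant is then removed with the help of the DM molecule. In ganglia, resident macrophages around the neurons are known to carry class II, while most nucleated cells can carry class I.

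The promoters of these genes hold well-known elements, and they are shown for genes measured here so that the elements of the class II and class I groups can be set side by side. Each line gives the 180 bases before the RefSeq start site (GRCm38.p6), 5′ to 3′ on the strand of the gene, for H2-Eb1 at chr17:34305687-34305866 (+ strand), H2-Aa at chr17:34287824-34288003 (- strand), H2-DMb1 at chr17:34153011-34153190 (+ strand), H2-DMb2 at chr17:34145069-34145248 (+ strand), H2-K1 at chr17:34000334-34000513 (- strand), H2-D1 at chr17:35262914-35263093 (+ strand) and B2m at chr2:122147507-122147686 (+ strand). For H2-K1 the more downstream of its 2 listed start sites was used. Capitals mark matches on either strand to the letters AACNGATG (core of the class II X box), GATTGG (core of the Y box, an inverted CCAAT) and TTTCACTT (a form of the interferon-stimulated element), to class I enhancer A, an NF-kappaB type site (the first run of capitals in H2-K1 and H2-D1), and to a further interferon form (the first run of capitals in B2m).
H2-Eb1: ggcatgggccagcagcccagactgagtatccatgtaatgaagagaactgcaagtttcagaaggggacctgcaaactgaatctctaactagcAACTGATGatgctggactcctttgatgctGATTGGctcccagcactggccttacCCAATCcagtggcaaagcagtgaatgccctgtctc
H2-Aa: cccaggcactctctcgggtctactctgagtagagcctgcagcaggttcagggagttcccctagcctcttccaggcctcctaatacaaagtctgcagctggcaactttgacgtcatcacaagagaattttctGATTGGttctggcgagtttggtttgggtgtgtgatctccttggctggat
H2-DMb1: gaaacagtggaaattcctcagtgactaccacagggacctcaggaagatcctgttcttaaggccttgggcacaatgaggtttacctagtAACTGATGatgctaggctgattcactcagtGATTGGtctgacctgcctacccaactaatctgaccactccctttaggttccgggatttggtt
H2-DMb2: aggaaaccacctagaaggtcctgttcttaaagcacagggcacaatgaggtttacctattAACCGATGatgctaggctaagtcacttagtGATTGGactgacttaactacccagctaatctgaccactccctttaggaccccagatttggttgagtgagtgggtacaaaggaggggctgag
H2-K1: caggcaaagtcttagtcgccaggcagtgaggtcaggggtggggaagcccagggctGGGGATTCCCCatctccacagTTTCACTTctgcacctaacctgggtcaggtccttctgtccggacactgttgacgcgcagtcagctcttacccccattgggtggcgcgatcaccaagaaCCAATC
H2-D1: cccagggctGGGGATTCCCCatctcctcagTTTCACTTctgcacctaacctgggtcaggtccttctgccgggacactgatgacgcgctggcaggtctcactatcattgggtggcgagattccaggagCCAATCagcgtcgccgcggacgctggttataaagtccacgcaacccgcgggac
B2m: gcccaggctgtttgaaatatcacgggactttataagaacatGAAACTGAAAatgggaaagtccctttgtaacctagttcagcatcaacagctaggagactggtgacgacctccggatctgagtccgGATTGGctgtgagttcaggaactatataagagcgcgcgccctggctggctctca

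In the 300-base windows of the RefSeq promoter table, the X box core was found for 4 of the 8 class II genes with a window (H2-Eb1, H2-Eb2, H2-DMb1 and H2-DMb2), for 0 of 12 nonclassical and 0 of 2 classical class I genes, and in 2.32% of all 32851 windows. In H2-Eb1 it began 89 bases before the start site with 21 bases between it and the Y box core, and in H2-DMb1 and H2-DMb2 22 bases lay between them. The Y box core was found for all 8 class II genes with a window, both classical genes, 8 of 12 nonclassical genes and 2 of 3 partners, against 16.1% of all windows. Enhancer A was found in H2-K1, H2-D1 and H2-Q6 and in 0.0304% of all windows. The form TTTCACTT was found for both classical and 7 of 12 nonclassical genes, 0 of 8 class II genes and 1.6% of all windows, and the further interferon form for B2m, H2-T22 and H2-T23 and 3.44% of all windows. None of the matches overlapped another in the printed stretches. These are matches of letters and say nothing of a factor being bound.

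Across the groups, class II and partner probe sets lay lower at the sample-2 level in small steps and classical class I was close to level. In all, 2 member probe sets passed the test, in opposite directions. That of H2-DMa, the alpha chain of the DM peptide exchanger, was lower. That of H2-T18, a nonclassical class I gene of the thymus leukaemia antigen type, was higher, but it entered the test only through its sample-2 values, since both sample-1 values lay below the filter level. Of the 71 members, 41 had a mean above the filter level, an intensity of 14.3, and were tested with limma among 27022 probe sets. The 2 past an adjusted p of 0.05 stand beside 0.622% of all tested probe sets, made up of 0.222% higher and 0.400% lower, and neither call held in every setting tried. An unadjusted p under 0.05 was found for 2 members higher and 9 lower, against 5.33% and 5.53% of all tested probe sets (10.9% in either direction). All differences are sample-2 level minus sample-1 level on the log2(intensity + 16) scale, which understates the change of dim probe sets.

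**Figure D1:**
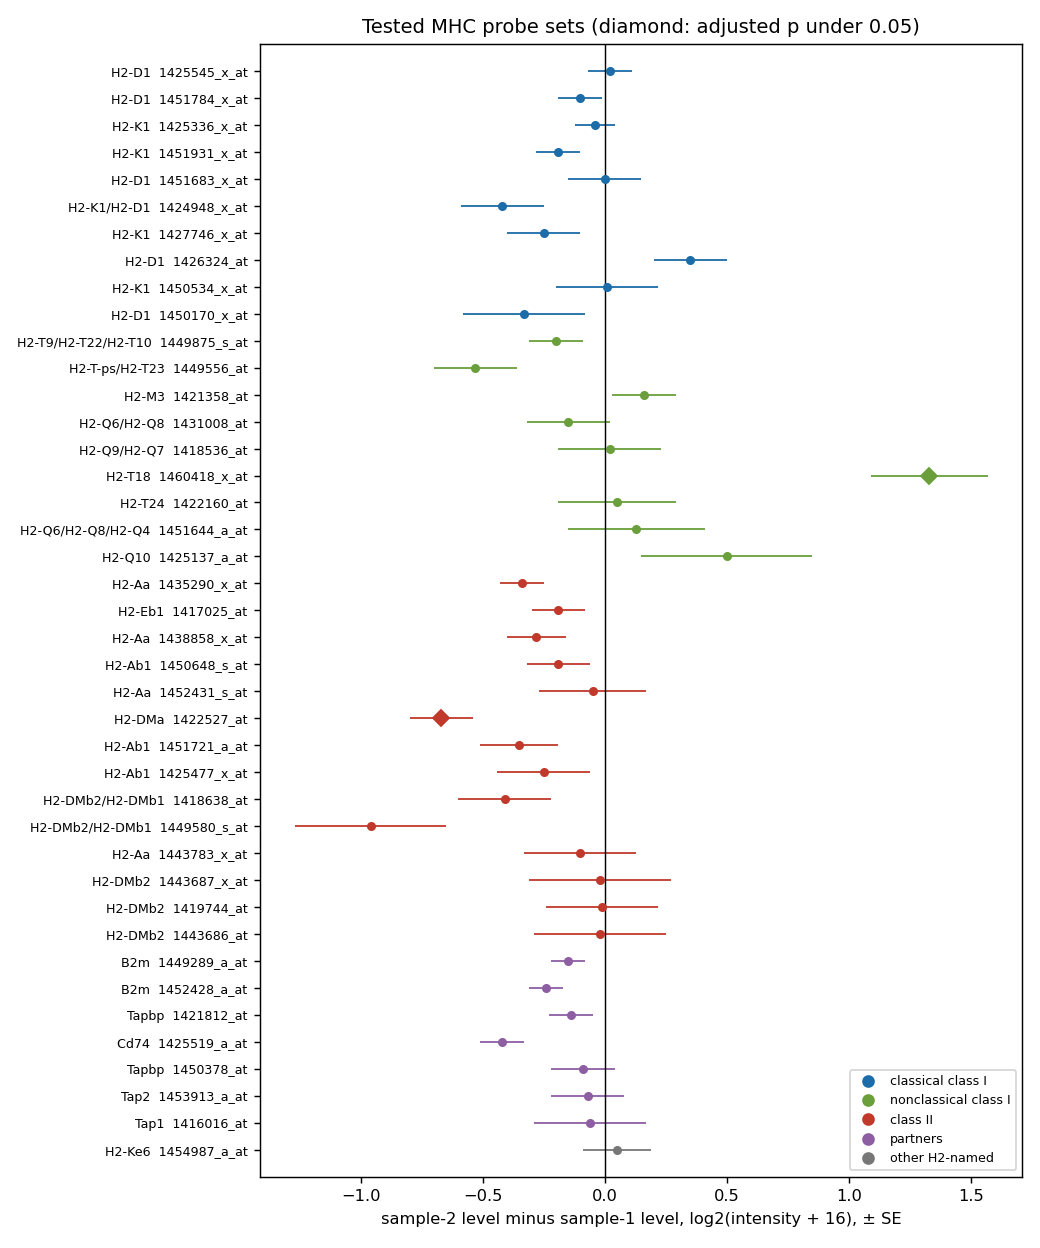
Differences between the levels for the 41 tested MHC probe sets, sample-2 minus sample-1 on the log2(intensity + 16) scale, with bars of 1 SE from the limma fit and colours for the groups; diamonds mark adjusted p under 0.05. All 14 class II and all 7 partner probe sets lie below 0, and H2-T18 at 1.33 and H2-DMa at -0.67 are the 2 diamonds.

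The values on the arrays of the 2 levels did not overlap for 18 of the 41 tested members with the sample-2 arrays lower, and for 3 with them higher, beside 20.1% and 21.1% of all tested probe sets. Of the 18, 8 were class II, 5 were partners, 3 classical and 2 nonclassical class I. The median difference was -0.22 for class II, -0.14 for the partners, -0.07 for classical and 0.05 for nonclassical class I, beside 0.00 for all tested probe sets, 48.9% of which lay below 0. Class II had 14 of 14 probe sets below 0 and the partners 7 of 7, while classical class I had 6 of 10 and nonclassical 3 of 9. Several probe sets report on the same gene, so these counts are not counts of independent genes. Without sample-1 array 2 the class II count was 9 of 15 and the median -0.09, and without sample-2 array 1 the count was 10 of 14. Sample-1 array 2 also stood apart in skeletal muscle markers, which summed to 5943 there and to 906 to 1289 on the other arrays, and their part in these counts was not tested.

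Among the class II chains, H2-Aa and H2-Ab1 encode the alpha and beta chains of the I-A molecule. The brightest H2-Aa probe set measured 719 and 782 at the sample-1 level against 590.5 and 590.1 at the sample-2 level. Both sample-2 arrays were below both sample-1 arrays, 21.3% lower in the mean, and the difference of -0.34 ± 0.09 (SE) did not pass (adjusted p = 0.151). A second H2-Aa probe set gave 331 and 350.1 against 304 and 254, also without overlap (-0.28 ± 0.12, adjusted p = 0.413), while the other two, dimmer ones overlapped between levels at -0.05 and -0.10. H2-Ab1 measured 197 and 228 against 176 and 191 by its brightest probe set, a difference of -0.19 ± 0.13 (adjusted p = 0.630). Its other probe sets differed by -0.35 and -0.25, and all 3 lay below 0.

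H2-Eb1, the beta chain of the second class II molecule, I-E, measured 353 and 393 against 311 and 340, a difference of -0.19 ± 0.11 (adjusted p = 0.585), with no overlap between the levels. The 3 probe sets of its alpha chain partner, H2-Ea, all lay below the filter level, and the brightest of them measured 7.23 and 8.85 against 5.66 and 10.1. H2-Ea is known to carry an inactivating deletion in several laboratory strains, and the strain is not named here. H2-Eb2, at 2.47 and 13.5 against 4.95 and 3.06, was not tested either.

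The DM molecule removes the invariant chain remnant from the class II groove, and its alpha chain gene gave the 1 class II probe set past the threshold. H2-DMa measured 181 and 168 at the sample-1 level against 106 and 101 at the sample-2 level, a fall of 40.6% in the mean. The arrays of each level lay close together, at 174.5 ± 9.33 and 103.6 ± 3.985 (SD, n = 2), and the difference was -0.67 ± 0.13 (adjusted p = 0.0498). With any 1 array removed the difference stayed between -0.72 and -0.62, but the adjusted p rose above 0.05: to 0.184 or 0.114 without sample-1 array 1 or 2, and to 0.0910 or 0.183 without sample-2 array 1 or 2. The call was also lost with quantile normalization (0.0564), array centring (0.0715), a pseudocount of 1 (0.0566), no filter (0.304) and no intensity trend (0.415). The other H2-DMa probe set, below the filter level, measured 9.73 and 20.2 against 9.80 and 12.5 and overlapped.

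The DM beta chain is encoded by the neighbouring genes H2-DMb1 and H2-DMb2, and the differences of their probe sets were not tested against each other. The pair annotated to both genes lay lower at the sample-2 level, one at 53.5 and 57.2 against 33.4 and 42.4 (-0.41 ± 0.19, adjusted p = 0.474) and the other at 70.5 and 53.9 against 42.5 and 11.35 (-0.96 ± 0.31, adjusted p = 0.234). Neither passed, and the second rests largely on sample-2 array 2: without sample-2 array 1 it was -1.51 (adjusted p = 0.0174) and without sample-2 array 2 -0.41. The 3 probe sets annotated to H2-DMb2 alone lay between -0.02 and -0.01 with overlapping arrays. The brightest of them, at 20.8 and 41.2 against 19.4 and 41.6, had an SE of 0.29 and ranged from -0.38 to 0.33 with 1 array left out. H2-DMb1 had no probe set of its own. The DO molecule, which restrains DM in B cells, gave only probe sets below the filter level, H2-Oa at 12.2 and 4.23 against 20.9 and 12.9 and H2-Ob at 4.93 and 8.88 against 10.6 and 5.55.

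Cd74, the invariant chain of class II, measured 550.2 and 574 at the sample-1 level against 420.0 and 414.0 at the sample-2 level. Its means of 562 ± 16.7 and 417 ± 4.23 (SD, n = 2) stood 25.8% apart, with a difference of -0.42 ± 0.09 that missed the threshold (adjusted p = 0.0818). With each array left out it stayed between -0.45 and -0.39. Both sample-2 arrays lay below both sample-1 arrays, as for the brightest probe set of each of H2-Aa, H2-Ab1 and H2-Eb1.

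**Figure D2:**
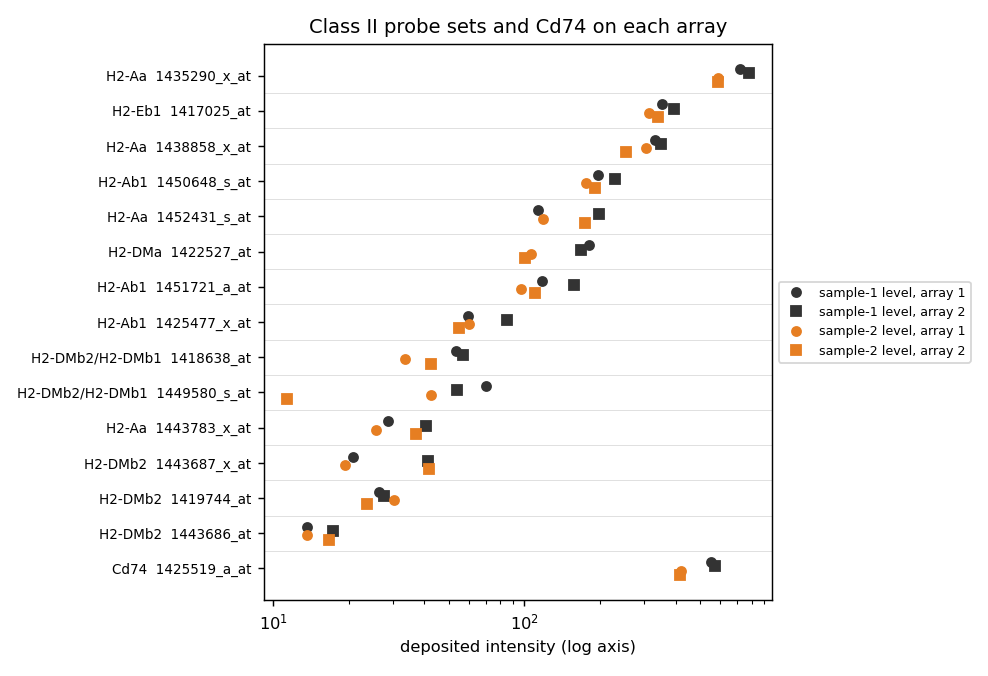
Deposited intensity (log axis) of the 14 tested class II probe sets and Cd74 on each array, black for the sample-1 level and orange for the sample-2 level, circles for array 1 and squares for array 2. For H2-DMa, Cd74 and the brightest H2-Aa probe set the orange symbols lie to the left of both black ones. The probe sets annotated to H2-DMb2 alone overlap, and those shared with H2-DMb1 do not.

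The 2 classical class I genes of this annotation, H2-K1 and H2-D1, encode the heavy chains that present to most cytotoxic T cells. H2-K1 measured 1026 and 1100 against 1042 and 1024 by its brightest probe set, a difference of -0.04 ± 0.08 (adjusted p = 0.913). H2-D1 measured 1451 and 1708 against 1517 and 1670 (0.02 ± 0.09, adjusted p = 0.973). The arrays of the levels overlapped for both. The next brightest H2-K1 probe set measured 991 and 1097 against 878 and 944, lower without overlap but not past the threshold (-0.19 ± 0.09, adjusted p = 0.464).

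The remaining classical probe sets disagreed with each other. The 1 annotated to both H2-K1 and H2-D1 measured 153 and 206 against 152 and 109 (-0.42 ± 0.17, adjusted p = 0.398), so that only 153 and 152 kept the levels from overlapping. A dimmer H2-D1 probe set, the only classical one tested with neither a multiple-match suffix nor several symbols, went the other way at 67.7 and 66.3 against 87.5 and 91.7 (0.35 ± 0.15, adjusted p = 0.447). H2-K1 probe sets ranged from -0.25 to 0.01 and those of H2-D1 from -0.33 to 0.35. Of the 14 classical probe sets 10 were tested and 0 passed in limma, with 1 higher and 1 lower at an unadjusted p under 0.05. The other 4, all of H2-D1, lay below the filter level.

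B2m, the light chain shared by all class I molecules, was measured by a pair of probe sets. The brighter gave 3247 and 3454 against 3186 and 2845 (-0.15 ± 0.07, adjusted p = 0.487) and the other 2355 and 2548 against 2089 and 2045 (-0.24 ± 0.07, adjusted p = 0.198). Both lay lower on the sample-2 arrays without overlap and neither passed. Tapbp measured 774 and 822 against 719 and 723 (-0.14 ± 0.09, adjusted p = 0.599). Tap1, at 40.1 and 65.9 against 40.3 and 58.8, and Tap2, at 134 and 119 against 135 and 104, overlapped between levels with differences of -0.06 ± 0.23 and -0.07 ± 0.15. The 3 other Tap1 probe sets lay below the filter level.

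The nonclassical class I genes present restricted ligands or serve as signals for NK and other innate cells. Their differences ran from -0.53 to 1.33, the upper end being that of H2-T18. H2-T18 measured 7.68 and 11.8 at the sample-1 level, both below the filter level, against 43.55 and 53.7 at the sample-2 level. The levels did not overlap, the means were 9.73 ± 2.90 and 48.6 ± 7.19 (SD, n = 2), and the fitted difference was 1.33 ± 0.24 (adjusted p = 0.0327). A probe set admitted through its higher level had to differ, so this p is given as a description. Because of the low sample-1 values the size depends on the pseudocount, at 2.23 with a pseudocount of 1 (adjusted p = 0.0526) and 0.61 with 64 (adjusted p = 0.0283), and the call was lost with no filter (0.341) and no intensity trend (0.305). With an array left out the difference was 1.21 to 1.44, and the adjusted p was 0.0875 or 0.0418 when array 1 or 2 of the sample-1 level was missing, and 0.0638 or 0.191 for array 1 or 2 of the sample-2 level.

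This H2-T18 probe set has the suffix _x_at, so other T-region transcripts can contribute to it. A second probe set, annotated to H2-T3 and H2-T18 together and not tested because of its low mean, also lay higher, at 4.85 and 4.07 against 16.4 and 15.4. Those annotated to H2-T3 alone, also untested, overlapped between the levels, at 12.8 and 15.9 against 2.81 and 14.7 and at 7.15 and 15.3 against 5.43 and 8.11.

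The probe set annotated to H2-T23, the gene for the Qa-1 molecule that NK receptors read, and to the pseudogene H2-T-ps measured 196 and 295 against 152 and 173. It was 33.9% lower in the mean without overlap, and its difference of -0.53 ± 0.17 did not pass (adjusted p = 0.234). Sample-1 array 2 weighed heavily on it: without that array the difference was -0.25 (adjusted p = 0.777), and without sample-1 array 1 it was -0.80 (adjusted p = 0.0430). The dimmer probe set of the same 2 genes, below the filter level, measured 7.88 and 12.2 against 3.09 and 3.23. The probe set for H2-T9, H2-T22 and H2-T10 measured 318 and 315 against 261 and 284 (-0.20 ± 0.11, adjusted p = 0.538).

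H2-M3, which presents formylated peptides such as those of bacteria and mitochondria, measured 170 and 193 against 197 and 212, higher without overlap but not past the threshold (0.16 ± 0.13, adjusted p = 0.701). Of the shared H2-Q probe sets, that of H2-Q6 and H2-Q8 gave -0.15 ± 0.17. That of H2-Q9 and H2-Q7 gave 0.02 ± 0.21, and that of H2-Q6, H2-Q8 and H2-Q4 gave 0.13 ± 0.28. H2-Q10, known as a secreted molecule of the liver, measured 1.97 and 21.6 against 16.6 and 25.6 (0.50 ± 0.35, adjusted p = 0.668), and its difference was -0.03 without sample-1 array 1. H2-T24 measured 21.6 and 28.9 against 30.0 and 23.3 (0.05 ± 0.24). Of the 21 nonclassical probe sets 12 lay below the filter level, and beside those already given they belonged to H2-Bl, H2-M9, H2-M10.1, H2-Q2 and H2-Q5, to H2-Bl with other symbols, and to H2-T9, H2-T22 and H2-T10.

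**Figure D3:**
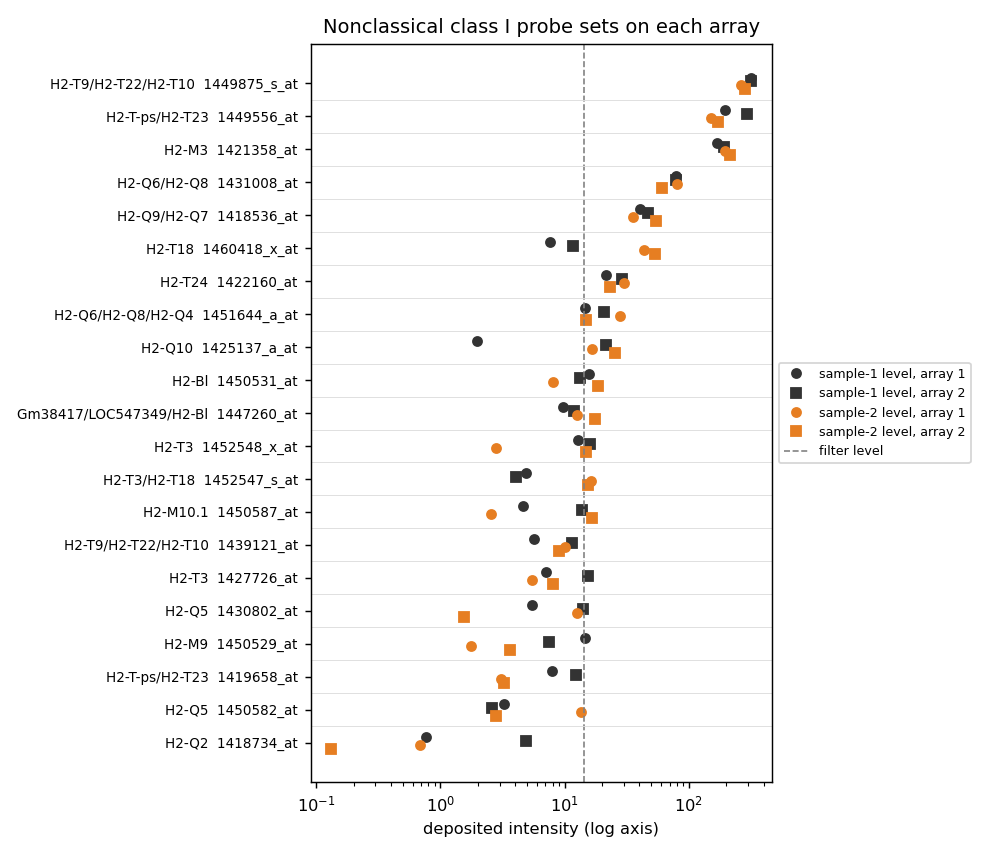
Deposited intensity (log axis) of all 21 nonclassical class I probe sets on each array, black for the sample-1 level and orange for the sample-2 level, with the filter level of 14.3 as a dashed line. The H2-T18 probe set moves from 7.68 and 11.8 to 43.55 and 53.7 across that line. The shared H2-T3 and H2-T18 probe set also crosses it, with sample-2 values of 16.4 and 15.4, while most others overlap between the levels.

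Of the remaining members, H2-Ke6, a gene of the region that encodes an enzyme and no MHC molecule, measured 112 and 134 against 127.5 and 127.6 (0.05 ± 0.14, adjusted p = 0.944). H2-D4 lay below the filter level, as did the probe set of H2-Q5 and H2-K1, at 10.2 and 8.41 against 17.3 and 10.3, and that of Gm38417, H2-Q2 and H2-D1, at 6.48 and 4.06 against 21.7 and 13.7. In all, 30 members were not tested: 4 classical, 12 nonclassical, 8 class II and 3 partner probe sets and these 3.

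Genes that serve the same pathway without being members gave no call. Of 13 tested genes of class I peptide loading and the immunoproteasome, 0 passed in limma and 1 was lower at an unadjusted p under 0.05, with a median difference of -0.01. The largest differences there were those of Irf2, an interferon regulatory factor, at 77.4 and 74.0 against 104 and 93.1 (0.32, adjusted p = 0.481), and Psmb8, an immunoproteasome subunit, at 168 and 185 against 134 and 143 (-0.31, adjusted p = 0.397). Of 17 tested genes of class II regulation and lysosomal processing, 0 passed in limma and 0 had an unadjusted p under 0.05 (median 0.01). Of all tested probe sets 0.622% passed and 10.9% had an unadjusted p under 0.05, with 5.53% lower. Ciita, the master activator of class II, was not tested, at 17.2 and 13.3 against 21.9 and 2.97. Marchf1, a ligase that removes class II from the surface, measured 19.5 and 20.6 against 13.9 and 6.48, a difference of -0.47 (adjusted p = 0.589). Both its sample-2 values lay below the filter level, so Marchf1 entered the test only through its sample-1 values and this p is given as a description. Spi1, a myeloid transcription factor, differed by 0.41 (adjusted p = 0.538).

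Interferon signalling gave 0 of 19 tested genes past the threshold in limma, with a median of -0.01. At an unadjusted p under 0.05, 0 were higher and 4 lower, beside 5.33% and 5.53% of all tested probe sets. Gbp2, an interferon-induced GTPase, measured 129 and 241 against 112 and 78.5, a difference of -0.81 ± 0.23 (adjusted p = 0.178). Its highest value was on sample-1 array 2, and with 1 array left out the difference ranged from -1.22 to -0.40. Ifit3, another interferon-induced gene, measured 253 and 244 against 201 and 175 (-0.38, adjusted p = 0.243). Of the receptor genes, Ifnar2 measured 198 and 183 against 151 and 137, lower without overlap (-0.37, adjusted p = 0.285), and Ifnar1, Ifngr1 and Ifngr2 differed by 0.11, -0.02 and -0.01.

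Markers of cells that carry class II lay on both sides of 0, and none of the macrophage, dendritic, B or T and NK cell markers passed the test. Of 15 macrophage markers 14 were tested, 10 below and 4 above 0, with a median of -0.20. At an unadjusted p under 0.05, 5 were lower and 2 higher, beside 5.53% and 5.33% of all tested probe sets. Csf1r, the macrophage growth factor receptor, measured 411 and 404 against 331 and 298 (-0.36, adjusted p = 0.190), and the complement genes C1qa, C1qb and C1qc gave -0.37, -0.31 and -0.50. Against these, Ptprc, the leukocyte marker CD45, gave 74.2 and 78.2 against 126 and 134 (0.66, adjusted p = 0.0731) and Lyz2, a lysozyme of macrophages and neutrophils, 0.41. The tested macrophage markers summed to 1862 and 2028 at the sample-1 level against 1859 and 1962 at the sample-2 level. Without Lyz2, left out after its values were seen, the sums were 1400 and 1497 against 1238 and 1250. Ptprc, which also lay higher, was kept in these sums.

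The other markers stood as follows. Dendritic cell markers had 3 of 7 measured genes tested, with sums of 174 and 187 against 168 and 174, and Itgax, Xcr1, Ccr7 and Siglech lay below the filter level. B cell markers had all 5 measured genes tested, with sums of 628 and 634 against 684.5 and 624 and a median of 0.28. Ighm, at 553 and 541 against 562 and 515, made up most of these sums. Cd79a, Cd79b and Ms4a1 lay higher without overlap (0.42, 0.51 and 0.28), while Ighm and Pax5 overlapped at -0.02 and -0.22. Of 8 T and NK cell markers only Cd8a was tested (0.50, adjusted p = 0.462), and the others, among them Cd3e, Cd3d, Cd3g and Cd4, lay below the filter level. Of 8 neutrophil markers 6 were higher past the threshold, S100a8, S100a9, Lcn2, Camp, Ngp and Ltf, with sums of 3303 and 3954 against 6625 and 8329. Of 6 fibroblast markers 4 were lower past the threshold, Col1a2, Dcn, Lum and Mfap5, with sums of 7896 and 7092 against 5362 and 4796. Of all tested probe sets 0.222% were higher and 0.400% lower past the threshold. Without sample-1 array 1 the adjusted p was 0.111 for Col1a2, 0.112 for Dcn and 0.0818 for Lum, and without sample-2 array 2 it was 0.0825 for Col1a2, 0.0812 for Lum and 0.103 for the neutrophil marker Ltf. Of 3 tested red cell markers Slc4a1 was higher, with sums of 209 and 204 against 363 and 497, and its adjusted p was 0.112 without sample-1 array 1 and 0.173 without sample-2 array 2. None of 7 endothelial and 6 Schwann and satellite glial markers passed in limma, with medians of -0.24 and -0.06. In each list 1 was lower at an unadjusted p under 0.05, beside 5.53% of all tested probe sets. In bulk RNA fewer cells of a type and less RNA per cell cannot be told apart, and the part of these markers in the class II, Cd74 and H2-T18 differences was not tested.

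**Figure D4:**
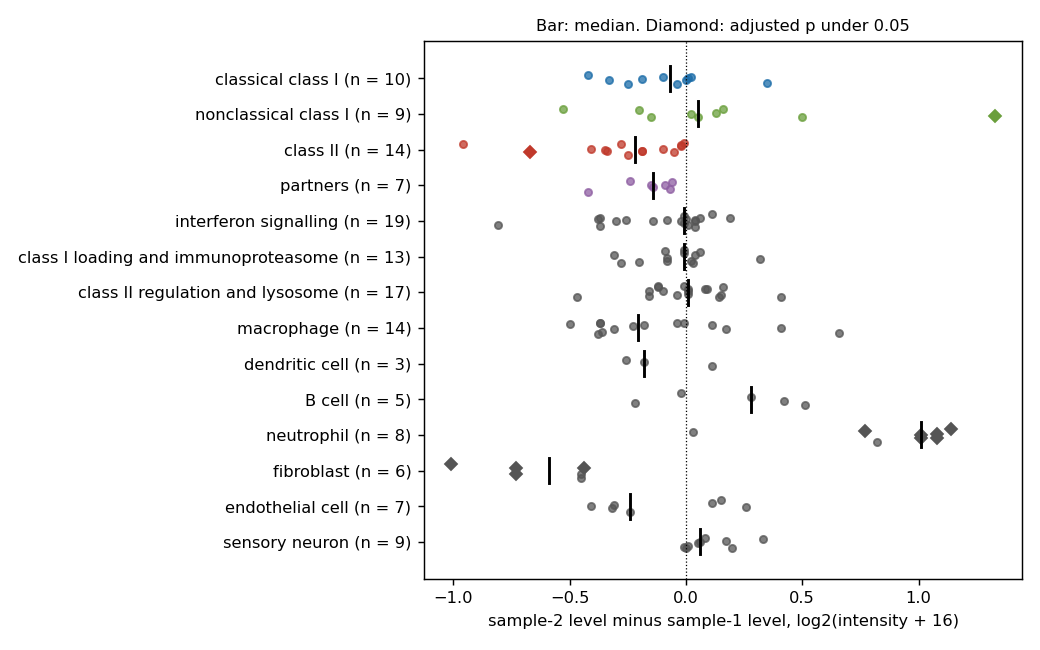
Differences between the levels, sample-2 minus sample-1 on the log2(intensity + 16) scale. Tested MHC probe sets are shown by group (coloured), and pathway genes and cell markers in grey, each gene by its brightest single-symbol probe set. Black bars are medians and diamonds have adjusted p under 0.05. H2-Ke6 and the skeletal muscle, red cell, T and NK cell, and Schwann and satellite glial lists are not drawn. Class II has its median at -0.22 and the macrophage markers at -0.20, while neutrophil markers centre on 1.01 and fibroblast markers on -0.59.

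All 9 sensory neuron markers, checked for the labelled tissue, passed the filter and summed to 37970 to 41320. Of 7 skeletal muscle markers Myh2 had an adjusted p of 0.0319, but both its sample-2 values, 2.16 and 11.7, lay below the filter level, and the adjusted p was 0.15 without sample-1 array 2 and 0.0718 without sample-2 array 1. Across tested probe sets the correlation was 0.987 within each level and 0.982 to 0.986 between levels.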

How the data were processed

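The authors deposited a linear intensity per probe set. A mean trimmed by 2% at each end came to 150 on every array, which is how a global scaling looks; the software is not given in the sources used here. Detection calls were not used. Having 2 arrays a level limits precision. Intensities were taken as log2(intensity + 16), and 64 control probe sets and those under the 40th percentile of the mean were left out. The rest were fitted with limma 3.58.1 (R 4.3.3; lmFit and eBayes with an intensity trend, no covariate), adjusted by Benjamini-Hochberg over all 27022. The fit was tested on simulated data.

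Symbols came from the platform annotation. Of 39 member symbols 38 matched a RefSeq gene ID (GRCm38.p6), and 0 changed. Promoters came from the RefSeq table. Probe sets with several symbols are given under all of them. The members, gene lists and alternatives were chosen with earlier results of these data known. Values are given for the brightest single-symbol probe set of each classical, class II and partner gene, every member past the threshold, and the brightest and most different nonclassical ones. Further probe sets of these genes, untested ones included, and some markers were named after their values were seen. Pathway and marker genes were taken by their brightest single-symbol probe set, and those for which none was found were left out. Alternatives changed the pseudocount, filter, normalization, spread model, probe sets, block and arrays.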

Additional observations from a re-analysis of the deposited data

How the results depend on the processing

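The number of members past the threshold was 2, with 1 higher and 1 lower. It was 0 with a pseudocount of 1, with no filter and without the intensity trend, 0 higher and 0 lower each time. It was 1 with a filter at the 60th percentile (H2-DMa, 0 higher), 1 with quantile normalization and with array centring (H2-T18, 0 lower), and 1 without probe sets of multiple match or several symbols (H2-DMa, 0 higher). Leaving out each array in turn gave 0 to 1 members, 0 to 1 higher and 0 to 1 lower. The arrays with the same number at both levels deviated together at r = 0.03, so the numbers give no evidence of pairing. With the array number as a replicate block 6 members passed, 1 higher and 5 lower, among 793 probe sets in all, against 168 without it. The 5 were H2-DMa, Cd74, the brightest H2-Aa probe set, and those shared by H2-T-ps with H2-T23 and by H2-DMb2 with H2-DMb1. With the block 1 interferon gene passed, and leaving out each array in turn gave 0 to 1. The median of classical class I was -0.07 and became 0.35 without probe sets of multiple match, when a single H2-D1 probe set was left, and that of nonclassical class I went from 0.05 to -0.18 with the stricter filter. Other alternatives moved these medians by less than the spread between arrays, and that of class II lay between -0.37 and -0.09 in every setting run. No member that passed in any setting changed sign. With 2 arrays a level, a p that misses the threshold does not show that the levels are alike.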
